A study of Mus musculus with 8 samples.

Results

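The values below follow 10 genes that sit on the feedback arm of phosphoinositide 3-kinase (PI3K) signaling or are known targets of the FoxO transcription factors: Pik3ip1, Irs2, Insr, Bcl6, Cited2, Ccng2, Cdkn1b, Pink1, Sesn1 and Txnip. They were chosen by name, with results of these arrays already known, out of 18193 genes that the array annotation covers. All 22 probe sets that the annotation assigns to these genes alone were read on all 8 arrays. Of these, 20 were among the 30024 probe sets, of 45037 without the controls, that had the highest mean signal, and these entered the fits, with at least 1 for each of the 10 genes. The remaining probe sets, 1 of Insr and 1 of Sesn1, were too dim to be tested. Because the genes were picked with the response to the drugs in view, their differences from the control are given as a description, without p-values. Counts of those that passed a threshold of p are given only beside the share of all genes.

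PI3K makes a membrane lipid that recruits the kinase Akt, and Akt phosphorylates FoxO factors and holds them in the cytoplasm. When PI3K or Akt is inhibited, FoxO factors enter the nucleus and switch on genes that slow the cell cycle, favor stress resistance and autophagy, and rebuild the upstream pathway, among them insulin receptor and adaptor genes. The mTOR complex lies downstream of Akt, and it restrains the same upstream adaptors through a separate negative feedback. Dactolisib inhibits PI3K and mTOR, and Dasatinib inhibits Src family kinases, Abl and several receptor kinases. In myeloid cells PI3K acts below chemokine, growth factor and integrin receptors.

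RNA was measured in granulocytic myeloid-derived suppressor cells (Gr-MDSCs), immature neutrophil-like cells, on 1 Affymetrix mouse array per sample. The groups were Dactolisib (2 samples, numbered 1 and 2), Dasatinib (2 samples, numbered 1 and 2) and the vehicle DMSO (4 samples, numbered 2 to 5), and each drug was given at 0.1 µM for 6 h. All samples came from prostate tumors of CPPSML males aged 12 to 16 weeks, whose genotype is PB-Cre+ with PtenL/L, p53L/L and Smad4L/L, plus the reporters mTmGL/+ and LSL-LucL/+. Cre was driven by the probasin promoter, which is active in prostate epithelium. Every male, the DMSO ones included, had been castrated at a tumor size of 150 mm3 and kept on enzalutamide, an androgen receptor inhibitor, for 4 weeks. Gr-MDSCs were enriched by density separation and magnetic isolation as CD11b+ Ly6G+ Ly6C low cells, and were cultured with the drugs right after isolation. No source states whether samples of a group came from separate mice or cultures, so the spread between them may be technical. The group names follow the sample titles, since a second label of the Dasatinib samples reads Dactolisib.

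Of the granulocyte transcripts, S100a8, which encodes a subunit of calprotectin, had log2 signals of 13.53 to 13.85 on the 8 arrays, and Csf3r of 11.62 to 12.60. Some granulocyte markers were dimmer: Cxcr2 read 8.23 to 9.63, and Mpo read 4.32 (Dasatinib 1) to 4.88 (Dactolisib 2). Array medians lay between 4.82 and 4.87. Clustering of the profiles put the arrays in 3 sets that cut across treatment, and these sets come from the data, not from the labels. Set A held Dactolisib 1, DMSO 2 and DMSO 4, set B held Dactolisib 2, Dasatinib 2 and DMSO 3, and set C held Dasatinib 1 and DMSO 5. The log2 signal of the epithelial keratin Krt8 ran from 8.09 to 13.37 and that of the seminal vesicle secretion gene Svs2 from 2.02 to 13.09, both highest in set C. In bulk RNA such as this, fewer cells of a type and less RNA per cell cannot be told apart. Each drug array was therefore also set against the DMSO arrays of its own set, which is called its own-set difference here. For Dactolisib 2 and for Dasatinib 2 that was DMSO 3 alone, and for Dasatinib 1 it was DMSO 5 alone. Only set A held 2 DMSO arrays, so the spread between DMSO arrays within sets B and C is not known. DMSO 2 and DMSO 4 stood in the same set, and over the 10 genes the absolute log2 difference between them had a median of 0.05 and ran from 0.01 to 0.26, against a median of 0.09 and a 95th percentile of 0.31 over all 14237 tested genes. The number of arrays, 2 per drug, limits the precision of every value.

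Promoter sequences were looked up for the FoxO motif, because FoxO factors bind short A-rich sites near the start of many of their targets. RefSeq (GRCm38.p6) gave the window from 250 bases before to 50 bases after the start for 9 of the 10 genes, in 11 entries. Both strands were searched for GTAAACA (reverse complement TGTTTAC) and CAAAACA (reverse complement TGTTTTG). The motif GTAAACA was found in 3.65% of all 32851 promoters, CAAAACA in 6.28% and either motif in 9.63%, against 4 of the 11 entries of these genes. The 4 windows that hold a motif are shown with that of Pik3ip1, which holds neither and had the highest difference under Dactolisib, and the capitals mark the motif. CAAAACA starts 37 bases before the start of Irs2 on the opposite strand (chr8:11008880-11009179, minus strand) and 16 bases before the start of Ccng2 (chr5:93267323-93267622, plus strand). GTAAACA starts 121 bases before the start of Txnip (chr3:96557707-96558006, plus strand) and, on the opposite strand, 22 bases after a start of Sesn1 (chr10:41810324-41810623, plus strand). The Pik3ip1 window is chr11:3330481-3330780, plus strand.
Irs2: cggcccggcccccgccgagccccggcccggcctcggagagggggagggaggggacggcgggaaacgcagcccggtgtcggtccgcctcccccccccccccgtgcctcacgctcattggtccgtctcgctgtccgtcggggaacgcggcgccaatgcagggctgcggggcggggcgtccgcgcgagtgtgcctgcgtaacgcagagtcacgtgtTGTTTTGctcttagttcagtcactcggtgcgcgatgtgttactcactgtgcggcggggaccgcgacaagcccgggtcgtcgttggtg
Ccng2: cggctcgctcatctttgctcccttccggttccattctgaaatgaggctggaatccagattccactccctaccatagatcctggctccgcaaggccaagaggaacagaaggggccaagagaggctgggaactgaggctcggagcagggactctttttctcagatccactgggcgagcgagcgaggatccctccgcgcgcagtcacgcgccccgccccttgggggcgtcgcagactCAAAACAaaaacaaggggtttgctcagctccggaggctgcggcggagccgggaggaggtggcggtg
Txnip: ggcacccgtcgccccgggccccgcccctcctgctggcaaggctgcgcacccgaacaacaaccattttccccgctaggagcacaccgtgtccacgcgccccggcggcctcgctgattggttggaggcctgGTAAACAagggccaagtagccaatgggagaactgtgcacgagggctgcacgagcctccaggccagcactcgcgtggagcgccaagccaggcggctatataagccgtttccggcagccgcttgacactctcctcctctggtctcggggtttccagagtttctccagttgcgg
Sesn1: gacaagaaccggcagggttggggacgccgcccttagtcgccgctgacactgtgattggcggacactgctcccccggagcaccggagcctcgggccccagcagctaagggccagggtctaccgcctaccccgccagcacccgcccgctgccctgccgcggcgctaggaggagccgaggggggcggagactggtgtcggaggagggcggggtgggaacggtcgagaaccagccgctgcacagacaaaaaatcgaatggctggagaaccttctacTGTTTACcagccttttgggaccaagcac
Pik3ip1: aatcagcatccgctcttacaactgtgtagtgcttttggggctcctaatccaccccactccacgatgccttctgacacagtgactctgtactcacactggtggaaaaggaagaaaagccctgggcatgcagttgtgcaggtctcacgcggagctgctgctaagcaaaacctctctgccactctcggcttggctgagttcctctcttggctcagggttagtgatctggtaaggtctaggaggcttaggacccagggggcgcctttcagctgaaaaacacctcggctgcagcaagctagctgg
The windows of Pink1, Cdkn1b, Cited2 and Bcl6 hold neither motif. A match is only a run of letters, and binding was not measured.

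Of the genes on the PI3K pathway itself, Pik3ip1 and Irs2 were higher under Dactolisib than on every DMSO array, while Insr overlapped with DMSO. Pik3ip1 encodes a membrane protein that binds the catalytic subunit of PI3K and restrains it. Its probe set 1428332_at had log2 signals of 6.57 and 6.31 with Dactolisib 1 and 2, of 6.16 and 5.58 with Dasatinib 1 and 2, and of 5.57, 5.69, 5.55 and 5.41 with DMSO 2, 3, 4 and 5. Both Dactolisib arrays and Dasatinib 1 lay above all DMSO arrays, and Dasatinib 2 lay among them. Against its own-set DMSO, Pik3ip1 was 2.0-fold higher on Dactolisib 1 and 1.54-fold higher on Dactolisib 2 (log2 differences of 1.0 and 0.62). DMSO 2 and DMSO 4 differed by 0.02 for this probe set. The other Pik3ip1 probe set, 1439087_a_at, gave 6.14 and 5.89 with Dactolisib, 5.99 and 5.18 with Dasatinib, and 5.10, 5.22, 5.05 and 5.06 with DMSO. Its own-set differences were 1.07 and 0.67 under Dactolisib, and Dasatinib 1 lay between the Dactolisib arrays here. The fitted Pik3ip1 difference between Dactolisib and DMSO was 0.88 ± 0.13 without the array set and 0.84 ± 0.10 with the array set as a block (log2, limma SE). As for all fitted values of Dactolisib here, the fit without the array set used 2 Dactolisib and 4 DMSO arrays, while DMSO 5, alone in its set in this fit, adds nothing to the value with the block.

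Irs2 encodes an adaptor that carries signals from the insulin and IGF receptors to PI3K. Its only probe set, 1443969_at, had log2 signals of 8.63 and 8.85 with Dactolisib, of 7.46 and 8.55 with Dasatinib, and of 8.12, 8.45, 8.07 and 7.63 with DMSO 2, 3, 4 and 5. The Dactolisib arrays were the highest of the 8, but Dasatinib 2 and DMSO 3, of the same set as Dactolisib 2, came close to Dactolisib 1. Own-set differences for Irs2 were 0.53 and 0.40 under Dactolisib, or 1.45-fold and 1.32-fold. The fitted Irs2 difference was 0.67 ± 0.23 without the array set and 0.48 ± 0.08 with it.

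Insr encodes the insulin receptor, a textbook FoxO target in other tissues. Its brighter probe set 1434446_at read 6.92 and 6.69 with Dactolisib, 6.68 and 6.66 with Dasatinib, and 6.59, 6.54, 6.85 and 6.65 with DMSO. DMSO 4 lay above Dactolisib 2, and DMSO 2 and DMSO 4 differed by 0.26, more than either own-set difference under Dactolisib (0.20 and 0.16). The dimmer probe set 1450225_at gave own-set differences of opposite sign, -0.17 and 0.31. The fitted Insr difference of 1434446_at was 0.15 ± 0.14, and 0.18 ± 0.10 with the array set as a block.

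**Figure D1:**
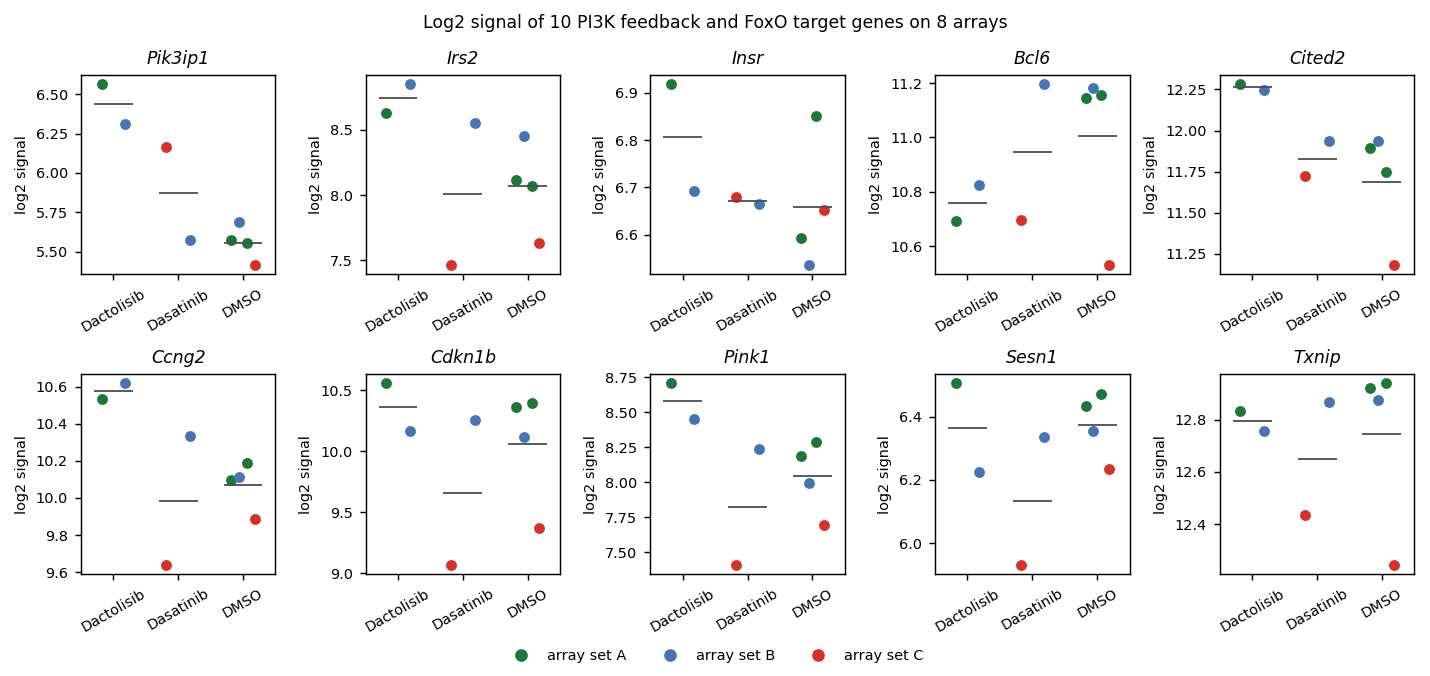
Log2 signal (vertical axis, a separate scale per gene) of the brightest tested probe set of each of the 10 genes on the 8 arrays, by treatment, with 1 point per array colored by array set and a line at the group mean. For Pik3ip1, Irs2, Pink1, Ccng2 and Cited2 both Dactolisib arrays lie above all 4 DMSO arrays, while for Bcl6 they lie below DMSO 2, 3 and 4 and above DMSO 5.

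Among the transcriptional regulators, Cited2 was higher and Bcl6 lower under Dactolisib than in own-set DMSO. Bcl6 encodes a repressor that FoxO factors induce in lymphoid cells. Its probe set 1421818_at had log2 signals of 10.69 and 10.83 with Dactolisib, of 10.70 and 11.20 with Dasatinib, and of 11.15, 11.18, 11.16 and 10.53 with DMSO. DMSO 2, 3 and 4 lay close together and above both Dactolisib arrays, while DMSO 5, which shares no set with a Dactolisib array, was the lowest of all. Bcl6 was 1.38-fold and 1.28-fold lower than own-set DMSO (log2 differences of -0.46 and -0.36). For the probe set 1450381_a_at the same differences were -0.55 and -0.40, with signals of 8.35 and 8.45 under Dactolisib against 8.90, 8.85 and 8.91 on DMSO 2, 3 and 4, and 7.83 on DMSO 5. The fitted Bcl6 difference depended on the array set: -0.25 ± 0.21 without it and -0.42 ± 0.08 with it.

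Cited2 encodes a co-regulator that competes with hypoxia-inducible factors for their coactivators. With 1452207_at its log2 signals were 12.29 and 12.24 under Dactolisib, 11.72 and 11.93 under Dasatinib, and 11.89, 11.94, 11.75 and 11.18 with DMSO. Both Dactolisib arrays lay above the rest, and again DMSO 5 was lowest. Own-set differences of Cited2 were 0.47 and 0.31 for this probe set and 0.46 and 0.42 for 1421267_a_at. DMSO 2 and DMSO 4 differed by 0.14, and the fitted difference was 0.57 ± 0.23, or 0.40 ± 0.09 with the array set.

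Of the cell cycle inhibitors, Ccng2 was higher under Dactolisib with both of its probe sets, and Cdkn1b was not set apart with its brighter probe set. Ccng2 encodes cyclin G2, an unusual cyclin that accompanies cell cycle arrest and is repressed by PI3K signaling. Probe set 1416488_at of Ccng2 read 10.53 and 10.62 with Dactolisib, 9.64 and 10.33 with Dasatinib, and 10.10, 10.11, 10.19 and 9.89 with DMSO. Both Dactolisib arrays were the highest, and Dasatinib 1 was the lowest of the 8. The own-set differences of Ccng2 were 0.39 and 0.51 (1.31-fold and 1.42-fold), and 0.52 and 0.56 for 1448364_at. Against DMSO 3, the only DMSO partner of Dactolisib 2, Dasatinib 2 stood higher as well, by 0.22 and 0.23 for these probe sets. Its fitted difference changed little with the array set, 0.50 ± 0.12 without it and 0.44 ± 0.08 with it.

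Cdkn1b encodes p27Kip1, an inhibitor of cyclin-dependent kinases. The probe set 1434045_at gave 10.56 and 10.17 with Dactolisib, 9.07 and 10.25 with Dasatinib, and 10.37, 10.12, 10.40 and 9.37 with DMSO. These signals followed the array sets, with both arrays of set C far below the others, and the own-set differences under Dactolisib were 0.17 and 0.05. The dimmer probe set 1419497_at behaved unlike it: Dactolisib 2 stood 0.80 and Dasatinib 2 stood 0.69 above the same DMSO 3 array, which read 7.08. Dactolisib 1 differed from own-set DMSO by 0.14 in that probe set. Its signals of 7.99 and 7.88 with Dactolisib lay just above all DMSO arrays, which read 7.87, 7.08, 7.84 and 6.00. The fitted difference of 1419497_at was 0.74 ± 0.54, and 0.42 ± 0.14 with the array set as a block, and it was not called in either fit. The fitted Cdkn1b difference of 1434045_at was 0.30 ± 0.32, and 0.12 ± 0.08 with the array set as a block.

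Among the genes of mitochondrial and oxidative stress, Pink1 was higher under Dactolisib, whereas Sesn1 and Txnip stayed close to DMSO. Pink1 encodes a kinase that marks damaged mitochondria for removal. Its probe set 1451148_at had log2 signals of 8.71 and 8.45 with Dactolisib, of 7.41 and 8.24 with Dasatinib, and of 8.19, 7.99, 8.29 and 7.69 with DMSO. The Dactolisib arrays were the highest of the 8, and Dasatinib 1 and DMSO 5, the arrays of set C, were the lowest. Own-set differences were 0.47 and 0.46 for this Pink1 probe set, or 1.38-fold on both arrays, and 0.59 and 0.60 for 1441937_s_at. The values of Dactolisib 2 rest on DMSO 3 alone, and Dasatinib 2 also stood above that array, by 0.24 and 0.25 for these probe sets. The fitted Pink1 difference was 0.54 ± 0.19, and 0.46 ± 0.08 with the array set.

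Sesn1 encodes sestrin 1, a stress-induced inhibitor of mTOR complex 1. Its brightest probe set, 1433711_s_at, read 6.51 and 6.23 with Dactolisib, 5.93 and 6.33 with Dasatinib, and 6.43, 6.36, 6.47 and 6.24 with DMSO. Dactolisib 1 was the highest and Dactolisib 2 the second lowest of these, so the own-set differences had opposite signs, 0.05 and -0.13. The probe sets 1438931_s_at and 1454699_at of Sesn1 gave -0.05 and -0.02, and -0.17 and -0.11. The fitted Sesn1 difference was -0.01 ± 0.13, and -0.03 ± 0.08 with the array set as a block.

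Txnip encodes a binding partner of thioredoxin that limits glucose uptake, and besides FoxO it is driven by the glucose sensor MondoA. Its probe set 1415996_at gave 12.83 and 12.76 with Dactolisib, 12.44 and 12.87 with Dasatinib, and 12.92, 12.87, 12.94 and 12.24 with DMSO. Both Dactolisib arrays lay slightly below DMSO 2, 3 and 4, and above DMSO 5. Own-set differences of Txnip were -0.10 and -0.12, and -0.09 and -0.11 for 1415997_at. The fitted Txnip difference was 0.05 ± 0.22 without the array set and -0.11 ± 0.08 with it.

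**Figure D2:**
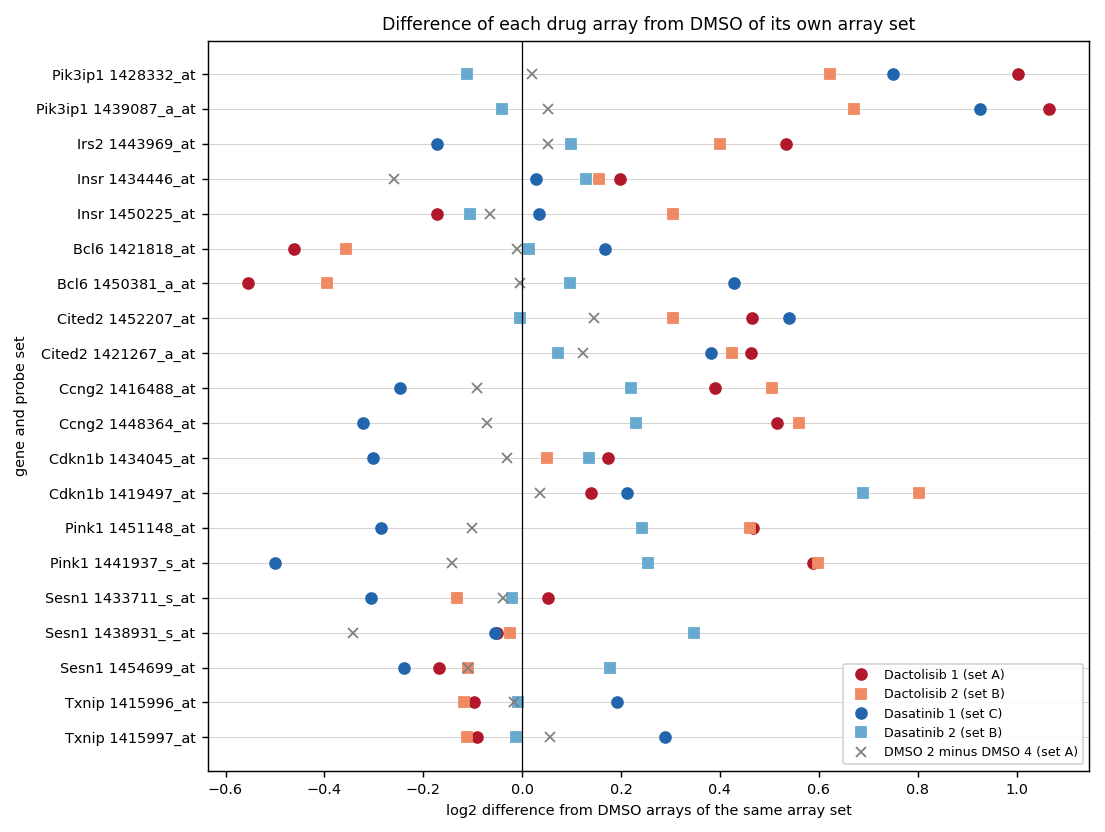
Log2 own-set difference (horizontal axis), that is each drug array minus DMSO within its set, for the 20 tested probe sets (vertical axis), with circles for the number 1 arrays, squares for the number 2 arrays and crosses for DMSO 2 minus DMSO 4. Dactolisib points of Pik3ip1, Irs2, Pink1, Ccng2 and Cited2 lie at 0.31 or more, those of Bcl6 at -0.36 or less, and the Dasatinib points of most genes lie on both sides of 0.

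Counted by the brightest tested probe set of each gene, 7 of the 10 genes were higher than own-set DMSO on both Dactolisib arrays (Pik3ip1, Irs2, Insr, Pink1, Ccng2, Cited2 and Cdkn1b), beside 31.6% of all tested genes. Lower on both were 2 (Bcl6 and Txnip), beside 35.4%. Both Dactolisib arrays lay above all DMSO arrays for 5 genes (Pik3ip1, Irs2, Pink1, Ccng2 and Cited2), beside 11.1% of all genes, and below all DMSO arrays for 0, beside 10.8%. The same 5 genes reached an own-set difference of 0.3 on both arrays, beside 2.3%, and Bcl6 reached -0.3 on both, beside 5.14%. The median own-set difference of the 10 genes was 0.29 on Dactolisib 1 and 0.23 on Dactolisib 2, against -0.02 and 0.00 over all tested genes. Since the genes were chosen with these differences known, nothing is read from the counts.

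In the limma fit of Dactolisib against DMSO without the array set, 0 of the 10 genes and 0% of all 14237 genes passed an adjusted p of 0.05 (Benjamini and Hochberg), in either direction. At an unadjusted p of 0.05 the same 5 genes were called higher, beside 2.73% of all genes, and 0 lower, beside 3.72%. With the array set as a block, 5 were called higher at the adjusted threshold, beside 2.24% of all genes. These were again Pik3ip1, Irs2, Pink1, Ccng2 and Cited2, and Bcl6 was called lower, beside 4.66%. The array sets were found from these same signals, so the SE and adjusted p with the block can be too small. The median fitted difference of the 10 genes was 0.40 without and 0.29 with the array set, against 0.01 and -0.00 over all genes. The block fit has 2 residual degrees of freedom: without Dactolisib 1, Dactolisib 2 or DMSO 3, 0 genes of the list passed, and without DMSO 4 Cited2 no longer did.

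**Figure D3:**
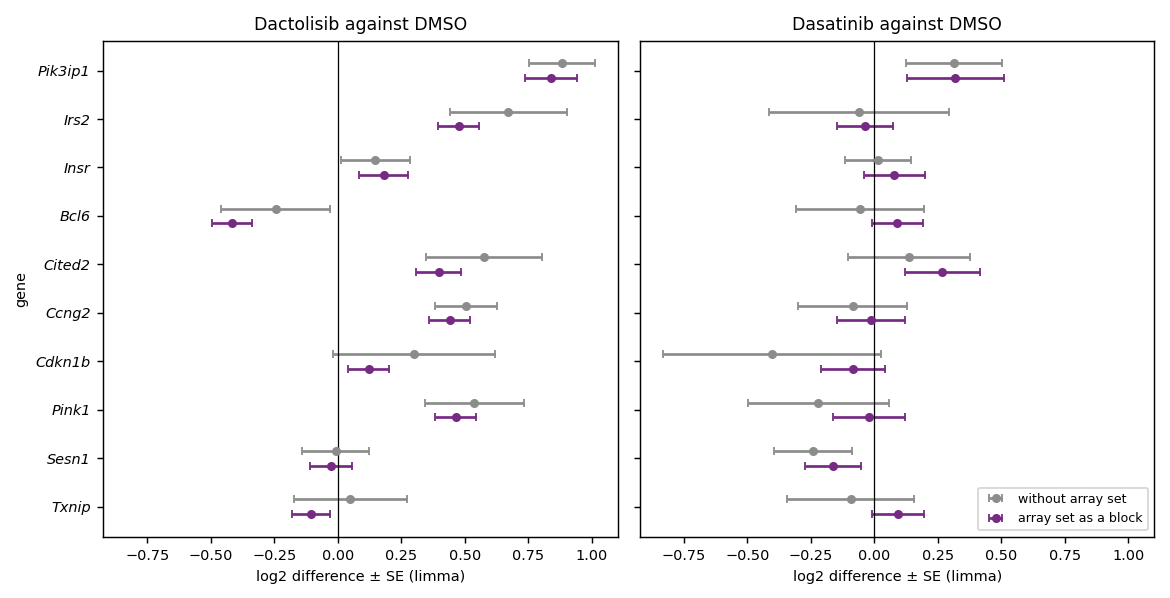
Fitted log2 difference ± SE (horizontal axis, limma) of Dactolisib (left) and Dasatinib (right) from DMSO for the 10 genes (vertical axis), in gray without the array set and in purple with the array set as a block. Pik3ip1 had 0.88 ± 0.13 and 0.84 ± 0.10 under Dactolisib and 0.31 ± 0.19 and 0.32 ± 0.19 under Dasatinib, and the SE of most genes was smaller with the block.

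Under Dasatinib the 10 genes had no shared direction. Pik3ip1 stood 0.75 above own-set DMSO on Dasatinib 1, a 1.68-fold difference, but 0.11 below it on Dasatinib 2, for a fitted difference of 0.31 ± 0.19 without and 0.32 ± 0.19 with the array set (limma, 2 Dasatinib and 4 DMSO arrays). Cited2 had 0.54 and -0.00, but on Dasatinib 1 it read 11.72, above DMSO 5 (11.18) and below DMSO 2, 3 and 4. Irs2, Pink1, Ccng2 and Cdkn1b ran the other way, with own-set differences of -0.17, -0.28, -0.25 and -0.30 on Dasatinib 1 and of 0.10, 0.24, 0.22 and 0.14 on Dasatinib 2. Dasatinib 1 was compared with DMSO 5 alone and Dasatinib 2 with DMSO 3 alone. The fitted difference with the array set was -0.04 ± 0.11 for Irs2, -0.02 ± 0.14 for Pink1 and -0.01 ± 0.13 for Ccng2. Bcl6 gave 0.17 and 0.01 on the Dasatinib arrays and a fitted 0.09 ± 0.10.

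On both Dasatinib arrays, Insr and Bcl6 were higher than own-set DMSO, beside 21.9% of all genes, and Sesn1 was lower, beside 22.8%. None of the 10 lay above all DMSO arrays on both Dasatinib arrays (1.66% of all genes) or below them (2.47%). The fit called 0 of the 10 with or without the array set, beside 0% of all genes in either direction. Without Dasatinib 2 or DMSO 3, where only Dasatinib 1 and DMSO 5 are compared, Pik3ip1 was called higher with the block, with 764 probe sets called in all. An unadjusted p of 0.05 also gave 0 of the 10, beside 0.14% of all genes higher and 0.162% lower without the array set, and 1.86% and 2.1% with it. The median fitted difference of the 10 genes was -0.07 without and 0.03 with the array set.

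The drugs, given at the same dose and for the same time, were also compared directly, with all 8 arrays in the fit. With the array set as a block, Dactolisib minus Dasatinib was 0.58 ± 0.20 for Pik3ip1, 0.45 ± 0.12 for Irs2, 0.40 ± 0.15 for Pink1, 0.40 ± 0.14 for Ccng2, 0.18 ± 0.15 for Cited2 and -0.46 ± 0.11 for Bcl6. None of the 10 passed the adjusted threshold in the limma fit, with 0% of all genes passing, but without Dasatinib 2 Pink1 was called higher with the block. At an unadjusted p of 0.05 with the block, Pik3ip1, Irs2, Pink1 and Ccng2 were higher under Dactolisib, beside 5.07% of all genes. Bcl6 was lower, beside 9.78%. Without the block, Pik3ip1, Pink1 and Ccng2 were higher and 0 were lower. The background there was counted over probe sets and not over genes: 459 of all 30024 were higher and 633 lower. The median difference between the drugs over the 10 genes was 0.50 without the array set, but 0.15 with it. Within set B both drugs share DMSO 3. There Dactolisib 2 lay above Dasatinib 2 for Pik3ip1 (6.31 against 5.58), Irs2 (8.85 against 8.55) and Ccng2 (10.62 against 10.33). The same held for Cited2 (12.24 against 11.93), Pink1 (8.45 against 8.24) and Insr (6.69 against 6.66). Dactolisib 2 lay below Dasatinib 2 for Bcl6 (10.83 against 11.20), Cdkn1b (10.17 against 10.25), Txnip (12.76 against 12.87) and Sesn1 (6.23 against 6.33).

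A wider list of 34 other FoxO targets with a tested probe set was read in the same way. This list and those below were also chosen with earlier results of these data known. Their counts and adjusted p-values are therefore a description only. With the array set as a block, 6 of the 34 rose under Dactolisib and 2 fell, against the shares of 2.24% and 4.66% over all genes, and without the block 0 passed (lowest adjusted p 0.775). The list's median difference was 0.09 with the block and 0.21 without it. On both Dactolisib arrays 23 of the 34 lay above own-set DMSO and 7 below, beside 31.6% and 35.4% of all genes. On both Dasatinib arrays 8 lay above and 8 below, beside 21.9% and 22.8%. Under Dasatinib 0 of the 34 passed in either fit. All calls with the block, of this and the other lists, are lost without Dactolisib 1, Dactolisib 2 or DMSO 3, when 0 probe sets pass.

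Of 7 tested genes of autophagy and protein breakdown, 7 were higher than own-set DMSO on both Dactolisib arrays, beside 31.6% of all genes, though by as little as 0.02, and 2 passed, beside 2.24%. Ulk1, the kinase that starts autophagy, rose by 0.61 ± 0.08 (adjusted p = 0.014, limma with the array set), and Gabarapl1, a protein of the autophagosome membrane, by 0.39 ± 0.08 (adjusted p = 0.040). Atg14, a subunit of the lipid kinase complex of autophagy, had 0.39 ± 0.09 and just missed the threshold (adjusted p = 0.051). Tsc22d3, the leucine zipper protein GILZ, rose by 0.53 ± 0.10 and the interleukin 7 receptor gene Il7r by 0.39 ± 0.09. Of 10 cell cycle genes, Gadd45b, a stress response gene, rose by 0.43 ± 0.09, and Ccnd2, cyclin D2, which FoxO factors repress, fell by 0.59 ± 0.09 on the log2 scale. Bbc3, the death promoter PUMA, rose by 0.42 ± 0.08 as 1 of 5 cell death genes. Trib3 of the same list had -0.43 ± 0.12 without passing, with own-set differences of -0.35 and -0.55 under Dactolisib. Cat, the antioxidant enzyme catalase, is a FoxO target but fell by 0.77 ± 0.08 (adjusted p = 0.0094), and Prdx3 and Sesn3 of the same antioxidant group had -0.27 ± 0.08 and -0.22 ± 0.10 without passing. For Cat, own-set differences were -0.82 and -0.70 under Dactolisib, larger in size than those of Bcl6. Gadd45b had 0.54 and 0.29 on Dactolisib 1 and 2, and 0.51 and -0.02 on Dasatinib 1 and 2. On the Dasatinib arrays Tsc22d3 had 0.14 and 0.21, and Bbc3 had 0.12 and 0.01. Ulk1 had -0.20 and 0.05 there, Gabarapl1 -0.26 and 0.05, and Il7r -0.19 and -0.06.

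**Figure D4:**
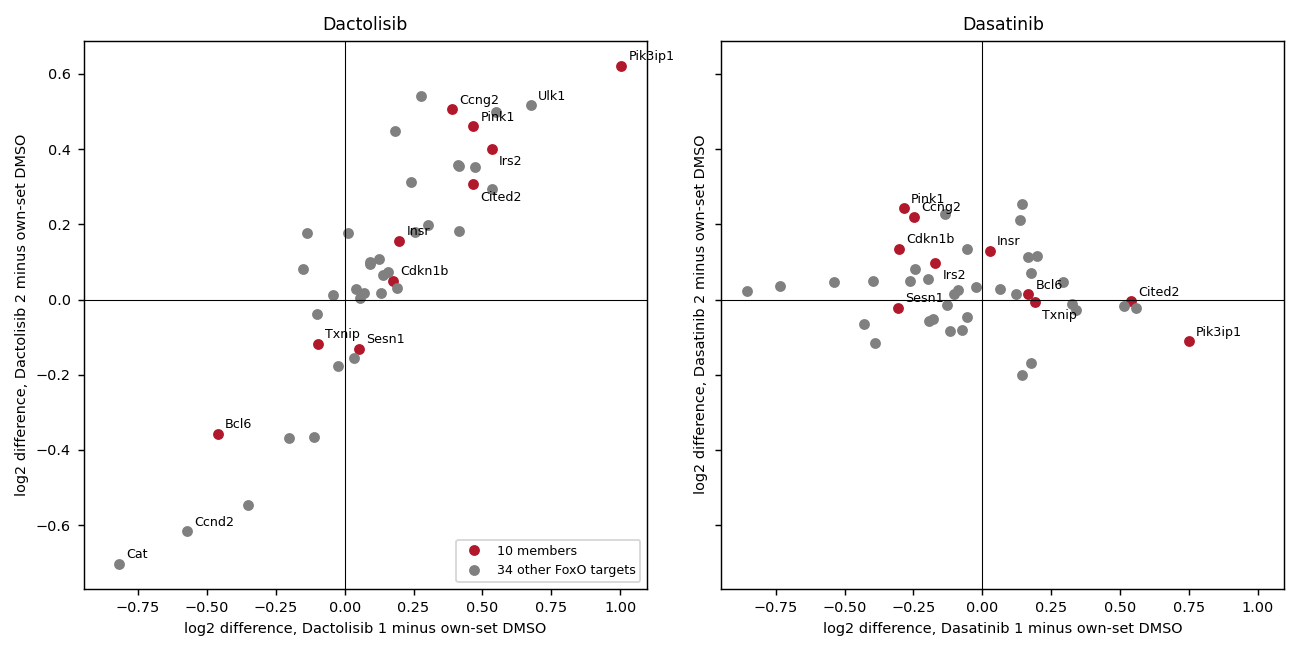
Log2 difference from own-set DMSO on the number 1 array (horizontal axis) and the number 2 array (vertical axis) of Dactolisib (left) and Dasatinib (right), with 1 point per gene for the 10 genes (red) and 34 other FoxO targets (gray). Under Dactolisib 7 of the 10 red and 23 of the 34 gray points lie above 0 on both axes, while under Dasatinib 2 red and 8 gray points do.

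Other genes around the pathway were read by the same block fit, in which 2.24% of all genes were called higher and 4.66% lower. None of 6 growth factor receptor genes related to Insr passed with the array set, and Igf1r, the IGF receptor gene nearest to Insr, had 0.15 ± 0.08. Among 7 brakes of PI3K and Akt that work beside Pik3ip1, Tsc1, whose product restrains mTOR complex 1, rose by 0.47 ± 0.09 (adjusted p = 0.027, limma with the array set). Tsc1 stood 0.53 and 0.39 above own-set DMSO on the Dactolisib arrays, and 0.55 above and 0.04 below it on Dasatinib 1 and 2. A list of 5 genes of the MondoA module, which holds MondoA itself and its partner Mlx beside genes that it drives, gave 0 higher and 1 lower: Arrdc3, a relative of Txnip, fell by 0.49 ± 0.10, with -0.25 ± 0.08 for Arrdc4. Of 12 relatives of the 10 genes, 1 rose and 2 fell. Arrdc2, a further relative of Txnip, rose by 0.97 ± 0.08. Ccng1, the closest relative of Ccng2 and a p53 target, fell by 0.72 ± 0.10 (adjusted p = 0.014), opposite in sign to Ccng2, and Sesn2 had -0.37 ± 0.12 beside the near-zero value of Sesn1. Of 11 p53 targets, 1 rose (Bbc3) and 1 fell (Ccng1).

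The genes most like Pik3ip1 and Irs2 over the 8 arrays were found by Pearson correlation after the mean of each array set was subtracted, with no test, since 8 arrays in 3 sets leave few independent values and the drugs shape all of them. For Pik3ip1 these were Smndc1, Cipc and Clk4 (r = 0.998 each), Lrrfip2 (0.997) and Ankrd33b (0.996). Cipc, an inhibitor of the circadian CLOCK protein, had own-set differences of 0.98 and 0.56 under Dactolisib and of 0.79 and -0.11 under Dasatinib. Among the 10 genes, Cited2 was nearest to Pik3ip1 (r = 0.965) and Bcl6 farthest (-0.740). For Irs2 the most alike were Prrc2b (0.999), followed by Ccdc184, Gm11517, Selenok and Klhl24 (0.992 each). Pink1 and Ccng2 followed Irs2 closely (0.946 and 0.937), and Bcl6 mirrored it (-0.984). The 5 genes that were higher under Dactolisib thus split by their Dasatinib 1 value, which rests on DMSO 5 alone. Pik3ip1 and Cited2 lay above own-set DMSO there, and Irs2, Pink1 and Ccng2 below it. Against all DMSO arrays, Pik3ip1 lay above and Irs2, Pink1 and Ccng2 below every one, whereas Cited2 lay above DMSO 5 only.

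Markers of the cells in the sample were read beside these differences. Over all genes, 35.4% were lower and 31.6% higher than own-set DMSO on both Dactolisib arrays, and 4.66% were called lower and 2.24% higher with the array set. Of 18 granulocyte markers, 12 were lower and 4 higher than own-set DMSO on both Dactolisib arrays, with 2 calls, both lower (limma with the array set). Their summed signal, as log2, was 16.44 to 16.53 with Dactolisib, 16.22 to 16.50 with Dasatinib and 16.32 to 16.61 with DMSO. Of 16 monocyte and macrophage markers, 13 were lower and 2 higher on both Dactolisib arrays, with 3 called lower, and their summed signal was 14.08 to 14.26 with Dactolisib, 14.33 to 14.35 with Dasatinib and 14.09 to 14.38 with DMSO. Of 15 epithelial markers 8 were lower and 0 higher, with 2 called lower, and their sum ran from 10.82 to 13.14 with Dactolisib, 11.20 to 15.57 with Dasatinib and 10.97 to 15.63 with DMSO. Of 10 fibroblast markers 4 were lower and 2 higher, with 1 called lower, and on Dasatinib 1 their median own-set difference was -0.94. The 5 seminal vesicle markers had a median of -2.14 on Dasatinib 1, and a summed signal of 5.62 to 5.65 with Dactolisib, 5.50 to 12.51 with Dasatinib and 5.45 to 14.48 with DMSO. Among endothelial, T and NK cell, and B cell markers, 0 were called. On Dactolisib 1 and 2 the log2 signal at the 3′ end minus that at the 5′ end of Gapdh, a measure of RNA integrity, differed from own-set DMSO by 0.015 and 0.018, and on Dasatinib 1 and 2 by -0.11 and -0.01. The same quantity for Actb differed by 0.049 and 0.071 on Dactolisib 1 and 2, and by 0.008 and 0.030 on Dasatinib 1 and 2. Its own values were 0.082 and 0.153 with Dactolisib, and 0.026, 0.082, 0.041 and 0.049 with DMSO 2, 3, 4 and 5. The part of these markers and of RNA integrity in the differences of the 10 genes was not tested.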

How the data were processed

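The deposited values are log2 signals that the authors summarized for 45101 probe sets on 8 arrays. The submitters' notes name MAS5 for that step and the methods name oligo, and no further scaling was done. The RNA was extracted with Trizol per the labels and with RNeasy per the methods. Dropping 64 control probe sets left 45037, of which the 30024 with the highest mean signal (66.7%, 14237 genes) were tested. A gene was read through its brightest tested probe set that belongs to no other gene.

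Drug and DMSO arrays (6 per fit), and all 8 arrays for the drugs together, were fitted with limma 3.58.1 in R 4.3.3, with p-values adjusted after Benjamini and Hochberg and called under 0.05. Array sets were found by average linkage (1 minus Pearson correlation), and the set served as a block in a second fit. The script was tested on simulated data. The 10 genes and all gene lists were chosen with earlier results of these data known, and from each other list up to 4 genes with the lowest p under Dactolisib could be named. Alternatives were quantile normalization, an offset of 32 before log2, no filter, a stricter filter (15012 probe sets), array weights, a prior that was trended and robust, the t-test of the methods, more arrays in the fit and leaving out each array. The block joined with other settings, and the fit without set C, were added after the data were seen.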

Additional observations from a re-analysis of the deposited data

Results flagged for a closer look

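The DMSO 5 array stood apart from the other DMSO arrays in 5 of 22 probe sets of the 10 genes (3 genes), by Dixon's criterion, which chance meets in about 1 in 20 groups. Over all tested probe sets DMSO 5 stood apart in 9.83%, and on the low side in 5.09%. Its log2 signal was 10.53 for Bcl6 1421818_at, against 11.15 to 11.18 on DMSO 2, 3 and 4, and 7.83 for Bcl6 1450381_a_at, against 8.85 to 8.91. For Cited2 1421267_a_at it was 9.35, against 10.08 to 10.23. For Txnip it was 12.24 with 1415996_at, against 12.87 to 12.94, and 11.75 with 1415997_at, against 12.51 to 12.56. DMSO 5 shares its array set with Dasatinib 1 only.

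The own-set differences of Bcl6 1421818_at had opposite signs under the drugs. They were -0.46 and -0.36 with Dactolisib 1 and 2, and 0.17 and 0.01 with Dasatinib 1 and 2. The signal itself was 10.70 on Dasatinib 1 and 10.69 on Dactolisib 1, and the 0.17 rests on DMSO 5 alone, which read 10.53. In the fit of the drugs against each other with the array set as a block, Bcl6 had a difference of -0.46 ± 0.11, which passed an unadjusted p of 0.05 but not the adjusted threshold.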

How the results depend on the processing

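Dactolisib against DMSO gave 0 passing probe sets without the array set under every alternative and every array left out. With the array set as a block 1919 of 30024 passed. Quantile normalization added to the block gave 1697, 32 added before log2 gave 3919 and the trended and robust prior gave 3940. Without the filter 1233 of 45037 passed with the block. Leaving out 1 array gave 0 to 2854 with the block (0 without Dactolisib 1, Dactolisib 2 or DMSO 3, 1547 without DMSO 4, and 2854 without DMSO 2). Of the 10 genes, 0 passed without the block and 6 with it (5 higher and 1 lower), beside 2.24% of all genes higher and 4.66% lower with the block. With the block joined to the other settings 5 passed under quantile normalization or no filter, where Cited2 was lost, and 6 under the offset or the trended prior, and 0 to 6 passed with 1 array left out. Of the 34 other FoxO targets 8 passed with the block (6 higher and 2 lower), beside the same shares of all genes. Dasatinib against DMSO gave 0, with 0 to 2 when 1 array was left out, and 0 to 764 with the block, 764 without Dasatinib 2 or DMSO 3, Pik3ip1 among them. For Dactolisib against Dasatinib the count was 0, with 0 to 4 when 1 array was left out and 0 to 1118 with the block (4 and 1118 without Dasatinib 2, the 1118 with Pink1). The median difference of the 10 genes between the drugs, 0.50, was 0.15 with the block, and 0.16 to 0.50 without and 0.11 to 0.24 with the block when 1 array was left out (0.13 without Dasatinib 1 or DMSO 5, 0.14 without DMSO 3 or DMSO 4). For Dactolisib that median ran from 0.26 to 0.48 and, with the block, from 0.23 to 0.30. For Dasatinib it ran from -0.37 to 0.19 and from -0.07 to 0.06. The cause of these changes was not tested, beyond the block fit losing all comparison when an array's only DMSO partner is left out. In the block fits of Dasatinib without Dasatinib 2 or DMSO 3, the spread comes from DMSO 2 and DMSO 4 alone. A replicate block could be fitted only for Dactolisib against Dasatinib, since each drug shares 1 replicate number with DMSO. It gave 0 passing probe sets, and the replicate numbers, whose deviations correlated at 0.559, are only numbers. Of the differences of single genes among the 10, 612 stayed within 1 SD of the DMSO arrays of the value reported and 108 moved by more.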
